A study of Danio rerio with 8 samples.

Results

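The annexin family was followed in zebrafish (Danio rerio) heart ventricles 2 weeks after ventricular resection. Its members were the probe sets whose platform annotation gives 1 of 10 annexin symbols: anxa1a, anxa1b, anxa1c, anxa2a, anxa2b, anxa3b, anxa4, anxa5b, anxa6 and anxa11b. All 10 genes were on the array, with 14 of the 15502 probe sets tested, and no filter on low values was applied. The resected group held 4 arrays and the control group 4, and each array carried RNA from a pool of 50 ventricles. A time of 2 weeks after surgery is given for both groups. The labels give no strain, age or genotype. The sources used here do not say how control animals were handled, whether by sham surgery or by none. The zebrafish ventricle is known to regrow muscle after such an injury, and the groups are compared to see how the injured ventricle differs at this time.

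Annexins are cytosolic proteins that bind acidic phospholipids in a calcium-dependent way through a conserved core of repeats, while a variable amino-terminal tail gives each its own partners. In mammals they take part in vesicle traffic, in the resealing of torn plasma membranes and in the clearance of dying cells, and annexin A1 is known for restraining leukocyte recruitment. Annexin A2 works with the S100 protein S100A10 and binds plasminogen and its activator, annexin A5 binds exposed phosphatidylserine, and annexin A6 is an abundant annexin of mammalian heart muscle.

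In resected ventricles 3 of the 10 members rose and 0 fell: anxa2a, anxa5b and anxa1a. Over all 8793 genes, each read by its brightest probe set, 5.05% were called higher and 3% lower (8.05% in all) by limma at an adjusted p of 0.05, the threshold used throughout. The 7 other members did not pass. The members were chosen with earlier results of these data known, so the count does not measure how unusual the family is. By probe set, 5 of the 14 were called higher and 0 lower, against 4.28% of all probe sets called higher and 2.57% lower (6.85% in all). Of those 5, 3 read the same gene, anxa5b, and are not separate observations. The 4 resected values lay wholly above the 4 control values for the 3 genes called and for no other member, whereas 7.74% of all genes showed that separation, 7.93% were separated the other way and 15.7% in either. The median change over the 10 members was 0.25 log2 units, and that over all genes was -0.04. Values are expression on a log2 scale after RMA, and changes are resected minus control with the standard error (SE) of the limma fit. Because probe sets differ in how well they bind, the level of 1 gene is not set against that of another.

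**Figure D1:**
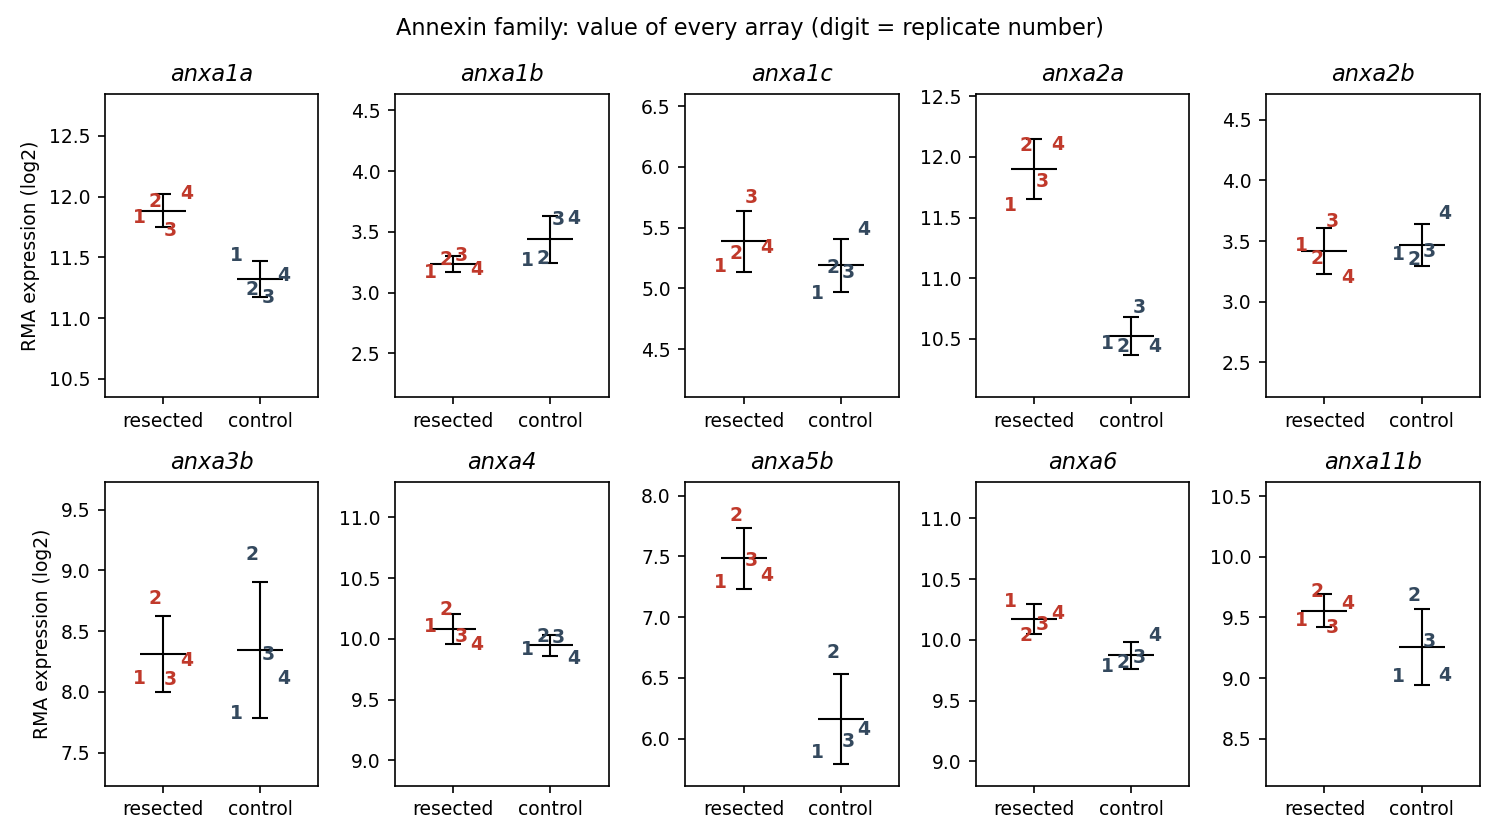
RMA expression (log2) of the 10 annexin genes in every array, resected left and control right; each digit is the replicate number of an array, bars are the mean and SD of 4 arrays, and every panel spans the same range of log2 units. The groups are apart for anxa1a, anxa2a and anxa5b and overlap for the other 7 genes.

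By the brightest probe set of each gene over all 8 arrays, the largest change in the family was that of anxa2a, a gene for annexin A2; anxa5b, described next, exceeded it in 1 of its other probe sets and without control replicate 2. It read 11.60, 12.10, 11.79 and 12.10 in resected replicates 1 to 4, against 10.46, 10.44, 10.76 and 10.44 in control replicates 1 to 4. The lowest resected pool was above the highest control pool, and 3 of the control pools agreed within a few hundredths of a log2 unit. The means were 11.90 ± 0.25 in resected and 10.53 ± 0.16 in control ventricles (SD, n = 4 each). The change was 1.37 ± 0.13 (SE), or 2.59-fold (limma adjusted p = 0.000213), and its 95% interval ran from 1.08 to 1.66. It ranked 60th among the increases of the 8793 genes.

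The second gene called was anxa5b, a gene for annexin A5, the phosphatidylserine-binding protein known from its use as a stain for dying cells. It is read by 4 probe sets. The brightest, whose identifier ends in S1_at, read 7.28, 7.84, 7.47 and 7.35 in resected replicates 1 to 4, against 5.89, 6.71, 5.97 and 6.08 in control replicates 1 to 4. Replicate 2 was the highest pool of each group, and the groups did not overlap. The means were 7.48 ± 0.25 in resected and 6.16 ± 0.37 in control ventricles (SD, n = 4 each), a change of 1.32 ± 0.18 (SE), or 2.50-fold (limma adjusted p = 0.00225). Without control replicate 2 the change was 1.50 (adjusted p = 0.000204), against 1.34 for anxa2a in the same fit.

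Both further anxa5b probe sets with a level above the lower quartile of the array rose as well, by different amounts. The probe set ending in S2_s_at read 6.55, 7.02, 6.53 and 6.73 in resected replicates 1 to 4, against 4.49, 5.61, 4.66 and 4.74 in control replicates 1 to 4. That was a change of 1.84 ± 0.22, or 3.57-fold (limma adjusted p = 0.000955). The probe set ending in S1_s_at changed by 0.90 ± 0.13, or 1.86-fold (adjusted p = 0.00343). In all 3 of these probe sets replicate 2 was the highest array of both groups. The fourth, ending in A1_at, averaged 2.91 ± 0.19 in resected and 2.90 ± 0.14 in control ventricles, below the array's lower quartile of 4.39. Its change was 0.00 ± 0.11, so the size of the anxa5b increase depends on the probe set, and the mean of the 4 probe sets changed by 1.01 log2 units.

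The third was anxa1a, a gene for annexin A1, which in mammals is induced by glucocorticoids and limits neutrophil entry into tissue. It read 11.83, 11.96, 11.72 and 12.03 in resected replicates 1 to 4, against 11.52, 11.24, 11.17 and 11.35 in control replicates 1 to 4. Every resected pool was above every control pool, by a narrower margin than for anxa2a. The means were 11.88 ± 0.14 in resected and 11.32 ± 0.15 in control ventricles (SD, n = 4 each). The change was 0.56 ± 0.10 (SE), or 1.48-fold (limma adjusted p = 0.00963), and ranked 423rd among the increases. The calls of anxa2a, anxa5b and anxa1a all held when any 1 array was left out. Without moderation of the variance across probe sets, and by the brightest probe set of each gene, anxa2a alone passed (adjusted p = 0.0177). The genes anxa5b and anxa1a did not (adjusted p = 0.0515 and 0.0584), and 2 annexin probe sets were called higher in that fit.

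**Figure D2:**
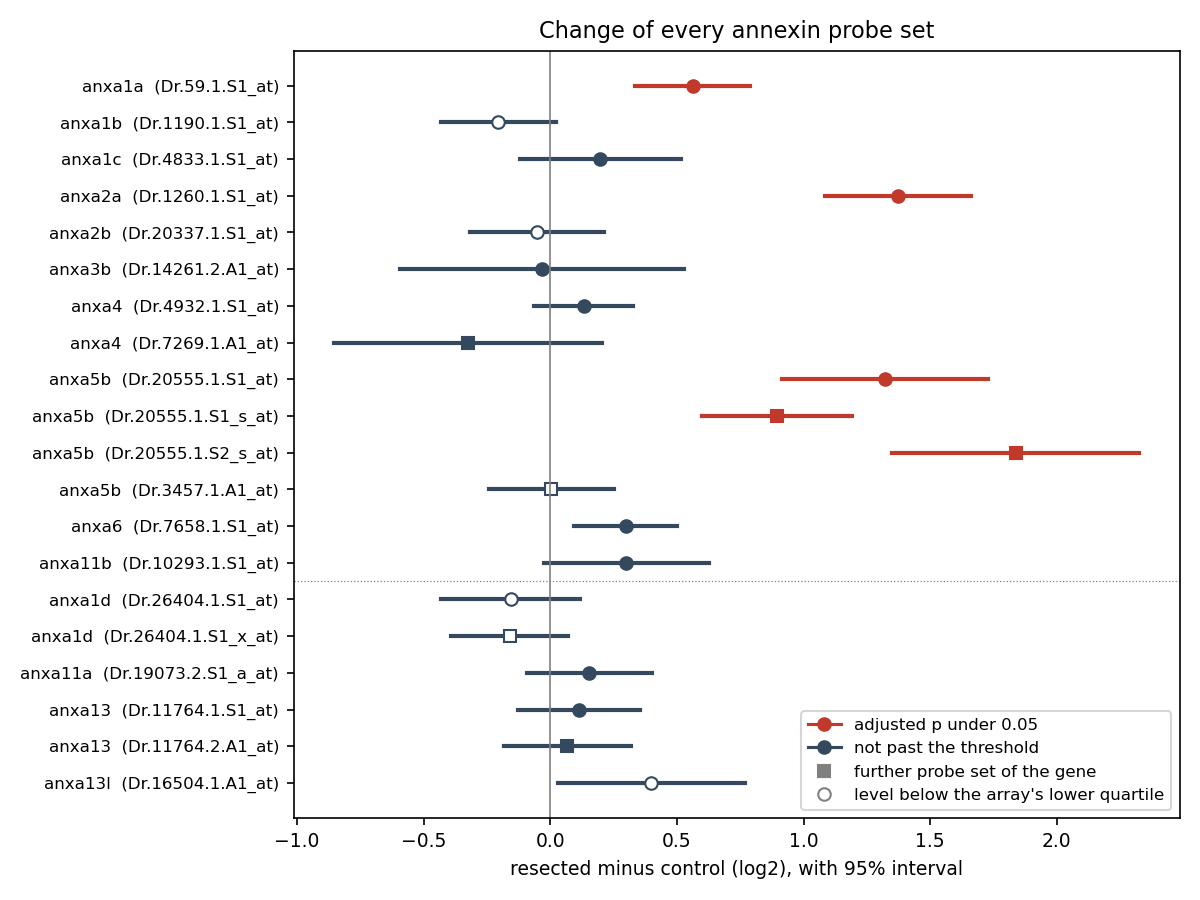
Change of every annexin probe set on the array (resected minus control, log2) with its 95% interval from limma; the 14 probe sets of the 10 members stand above the dotted line and 6 probe sets of 4 other annexins below it. The 5 called probe sets are those of anxa1a and anxa2a and 3 of the 4 of anxa5b; open symbols mark levels below the lower quartile of the array.

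Among the 7 members not called, anxa6 came closest. It read 10.31, 10.03, 10.12 and 10.22 in resected replicates 1 to 4, against 9.78, 9.82, 9.86 and 10.04 in control replicates 1 to 4. The groups met only where the lowest resected pool lay just below the highest control pool. The change was 0.30 ± 0.09 (limma adjusted p = 0.0797), with a 95% interval from 0.10 to 0.50, and it did not pass under any of the 18 alternatives tried, where the adjusted p ranged from 0.0688 to 0.192.

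The gene anxa11b, for annexin A11, which in human cells tethers RNA granules to lysosomes, had a mean of 9.56 ± 0.14 in resected and 9.26 ± 0.32 in control ventricles (SD, n = 4 each). Its values were 9.47, 9.72, 9.42 and 9.62 in resected replicates 1 to 4, against 9.01, 9.68, 9.31 and 9.02 in control replicates 1 to 4. Control replicate 2 lay among the resected pools, and the other control pools lay below all of them. The change was 0.30 ± 0.15 (limma adjusted p = 0.253), and without control replicate 2 it was 0.44 ± 0.11 and passed (adjusted p = 0.0352). Without that array 10.4% of all probe sets were called, against 6.85% with all arrays.

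The gene anxa3b, for annexin A3, a protein known from human neutrophil granules, varied more within groups than between them. It read 8.11, 8.77, 8.11 and 8.26 in resected replicates 1 to 4, against 7.83, 9.13, 8.30 and 8.11 in control replicates 1 to 4. The highest and the lowest of the 8 values were both control pools. The change was -0.03 ± 0.25, with a 95% interval from -0.60 to 0.53 (limma adjusted p = 0.951), and without control replicate 2 it was 0.23 ± 0.17 (adjusted p = 0.444).

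The 2 probe sets of anxa4, for an annexin typical of epithelial cells in mammals, differed in sign and neither passed. The brighter averaged 10.08 ± 0.12 in resected and 9.95 ± 0.09 in control ventricles, a change of 0.13 ± 0.09 (limma adjusted p = 0.4). The dimmer averaged 7.91 ± 0.42 in resected and 8.24 ± 0.43 in control ventricles, a change of -0.33 ± 0.24 (adjusted p = 0.446). Their mean changed by -0.10.

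The remaining members, anxa1b, anxa1c and anxa2b, are close relatives of the called genes. The gene anxa1c ranged from 5.18 to 5.75 in resected and from 4.96 to 5.49 in control pools, and its change was 0.20 ± 0.14 (limma adjusted p = 0.44). The levels of anxa1b (3.17 to 3.31 in resected and 3.26 to 3.61 in control pools) and anxa2b (3.20 to 3.66 in resected and 3.35 to 3.73 in control pools) were below the array's lower quartile, the only 2 members of which that was true. RMA gives no detection call, so whether these transcripts were present is not known. Their changes were -0.21 ± 0.10 for anxa1b (adjusted p = 0.26) and -0.05 ± 0.12 for anxa2b (adjusted p = 0.828).

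The array also carried 4 annexins outside the 10, namely anxa1d, anxa11a, anxa13 and anxa13l, and none was called by limma, against 8.05% of all genes called in either direction. At an unadjusted p under 0.05, 1 of the 4 was higher and 0 lower, where 12.7% of all genes were higher and 12.7% lower. The gene anxa11a changed by 0.15 ± 0.11 (adjusted p = 0.441) and anxa13 by 0.12 ± 0.11 (adjusted p = 0.559). At low levels, anxa13l changed by 0.40 ± 0.17 (adjusted p = 0.184) and anxa1d by -0.16 ± 0.12 (adjusted p = 0.483).

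Zebrafish carry several copies of some annexins, so the changes of copies with the same number were compared directly. On the GRCz12tu assembly anxa1b, anxa1c and anxa1d stand side by side with 0 protein-coding genes between neighbours, while anxa1a lies on the same chromosome with 776 such genes between it and anxa1d. For each of 9 pairs the difference between the copies was taken in every array and compared between groups by an exact two-sided permutation test over the 70 splits of the arrays. The increase of anxa2a exceeded the change of anxa2b by 1.42 log2 units (exact p = 0.0286, the smallest this design allows; 0.0643 adjusted over the 9 pairs). That of anxa1a exceeded the change of anxa1b by 0.77 and that of anxa1d by 0.72, each with the same exact p and adjusted p. It exceeded that of anxa1c by 0.37 (exact p = 0.114, adjusted p = 0.171). The change of anxa1b was lower than that of anxa1c by 0.40, again at the smallest exact p, 0.0286. The other 4 pairs differed by 0.35 (anxa1c minus anxa1d), -0.05 (anxa1b minus anxa1d), -0.15 (anxa11a minus anxa11b) and -0.29 (anxa13 minus anxa13l), with adjusted p-values of 0.103 to 0.514. After adjustment 0 of the 9 pairs passed the threshold, and 4 had an unadjusted p under 0.05. With 70 splits no pair could pass on its own, since even 4 pairs at the smallest exact p had an adjusted p of 0.0643. The count of 0 therefore does not show that the copies changed alike. In each of these 4 pairs 1 copy, anxa1b, anxa1d or anxa2b, lay below the lower quartile of the array.

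Within groups, several annexins were highest in the same arrays. Control replicate 2 was the highest control pool for 4 members, anxa3b, anxa4, anxa5b and anxa11b, and resected replicate 2 was the highest resected pool for 4, which were the same 4 genes. For anxa4 this rested on the brighter probe set, where control replicate 2 led by less than 0.01, and in the dimmer one it was the lowest control pool. Control replicate 4 was the highest control pool for 4 further members, anxa1b, anxa1c, anxa2b and anxa6. How often each array was the highest of its group over all genes was not counted. Of a list of macrophage markers, 6 of 9 were measured and 3 rose, where 5.05% of all genes were called higher. The mean level of the list was highest in replicate 2 of each group too, though the numbers were not taken to pair the arrays. That mean was 8.42 in resected replicate 2, against 7.63 to 7.97 in the other resected pools, and 7.89 in control replicate 2, against 6.79 to 6.93 in the other control pools. The neutrophil and epicardium lists were also highest in replicate 2 of each group, by smaller leads. For neutrophil markers resected replicate 2 was at 7.425 (others 7.082 to 7.370) and control replicate 2 at 7.070 (others 6.473 to 7.030). For epicardium markers these were 8.755 (others 8.563 to 8.716) and 7.990 (others 7.853 to 7.986). For anxa1a and anxa2a control replicate 2 did not stand above the other controls, at 11.24 and 10.44, while resected replicate 2 was their second highest resected pool, at 11.96 and 12.10. In the macrophage list spi1b, lcp1, coro1a, marco and ncf1 were highest in replicate 2 of each group, and csf1ra was not. The value of csf1ra was 5.929 in resected replicate 2, against 5.955 in resected replicate 4. In control replicate 2 it was 5.267, against 5.356 and 5.392 in control replicates 3 and 4. These genes were named after their values were seen. Whether the genes of the macrophage list were read from macrophages alone or also from other leukocytes was not tested. The part of macrophage, neutrophil or epicardial content in the annexin values was not tested either.

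**Figure D3:**
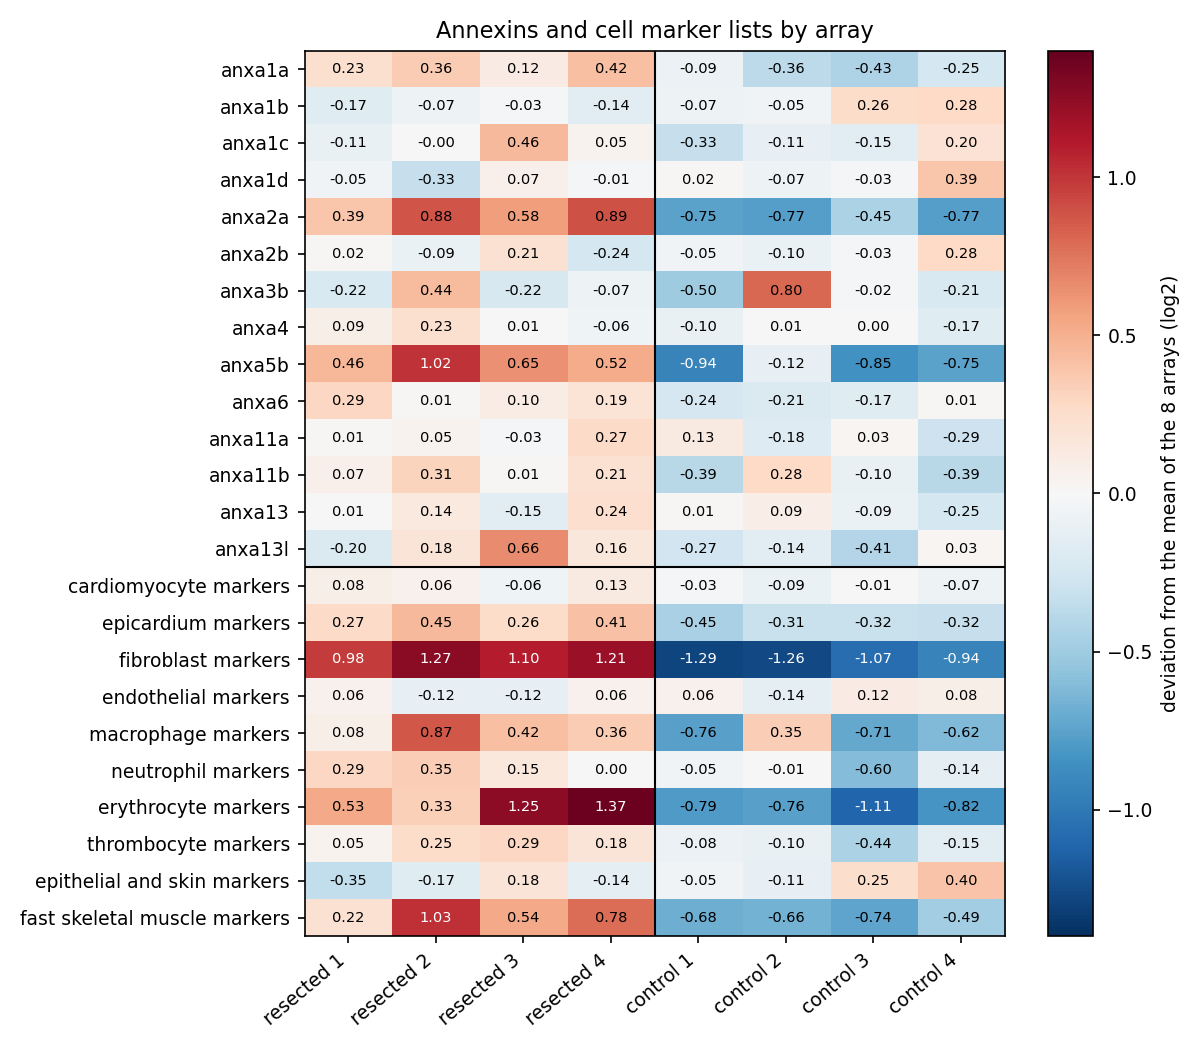
Deviation of each array from the mean of the 8 arrays (log2) for 14 annexins, each by its brightest probe set, and for the mean of 10 lists of cell markers; resected arrays stand left of the line and control arrays right of it. Control replicate 2 is above the other controls for anxa3b, anxa5b, anxa11b and the macrophage list. By smaller leads it is also highest for anxa4, anxa13 and the epicardium, neutrophil and erythrocyte lists. The genes anxa1a, anxa2a and anxa5b are below the 8-array mean in every control array.

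Several other cell marker lists moved between the groups, where 5.05% of all genes were called higher and 3% lower. All marker lists were chosen with earlier results of these data known. Heart muscle markers, the check of the labelled tissue, were near the top of the array's range in every pool: their mean level over 5 measured of 11 listed genes was 13.10 to 13.29 in resected and 13.08 to 13.16 in control pools, with 1 called higher. Fibroblast markers were higher for 6 of 6, with mean levels of 9.75 to 10.04 in resected and 7.49 to 7.84 in control pools. Epicardium markers were higher for 3 of 6, at 8.56 to 8.76 in resected and 7.85 to 7.99 in control pools. The 3 epicardium calls were clu, aldh1a2 and krt18a.1, while wt1a (-0.14), tbx18 (0.21) and podxl (-0.15) were not called. The largest change of that list was that of clu (2.50), and its median change was 0.45. Erythrocyte markers were higher for 6 of 6, at 9.66 to 10.70 in resected and 8.21 to 8.57 in control pools. Fast skeletal muscle markers were higher for 6 of 9, at 7.35 to 8.16 in resected and 6.39 to 6.65 in control pools. Of the neutrophil markers 2 of 6 were higher, of the thrombocyte markers 1 of 4 and of the endothelial markers 1 of 4, with 0 lower in each. The 2 neutrophil calls were mmp9 and alox5ap, while lyz (0.86), mpx (-0.06), cebp1 (-0.07) and nccrp1 (-0.01) were not called. The endothelial call was cldn5a (0.42), at a level below the array's lower quartile. Of that list kdrl (-0.41), tie1 (-0.08) and tek (-0.17) were not called, and its median change was -0.13. The thrombocyte call was f13a1b (0.91), while itga2b (0.04), gp1bb (0.24) and thbs1b (0.35) were not called. The levels of gp1bb and thbs1b were below the array's lower quartile. Of 13 epithelial and skin markers 1 was higher and 1 lower, at mean levels of 5.97 to 6.50 in resected and 6.20 to 6.71 in control pools. In RNA of whole ventricles a larger number of cells of a type and more RNA per cell cannot be told apart, and the part of these cell types in the increases of anxa2a, anxa5b and anxa1a was not tested.

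The genes whose pattern over the 8 arrays was most like that of anxa2a were found from the mean absolute difference between log2 values, each gene centred on its own mean. They were the hyaluronan-binding tnfaip6 (0.08), the transglutaminase gene tgm2b (0.09), the nucleoside diphosphate kinase gene nme3 (0.10), the carboxypeptidase gene cpn1 (0.11) and the cadherin gene cdh11 (0.14). The median over the 8139 genes compared was 0.71. These 5 changed by 1.26 to 1.51 log2 units, near the 1.37 of anxa2a, and the measure includes that step between the groups. For anxa3b, the member with the smallest change, the nearest genes were the actin-binding profilin pfn1 (0.12), the ferritin gene fthl30 (0.12), rarres3l (0.13), the interferon regulatory factor gene irf1b (0.14) and pttg1ipa (0.15), where the median was 0.35.

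Genes linked to annexins by binding, by a shared process or by calcium-dependent binding of phospholipids were followed through 5 lists. They are called partner lists for short, though not all of their proteins are known to bind annexins. These lists were chosen with earlier results of these data known. Over all genes 5.05% were called higher and 3% lower. The S100 proteins, small calcium-binding partners of annexin tails, and the large scaffold Ahnak had 11 measured genes, of which 1 rose and 0 fell. That gene was s100u, at 7.92 ± 0.08 in resected and 7.48 ± 0.13 in control ventricles (SD, n = 4 each), a change of 0.44 ± 0.09 (limma adjusted p = 0.0152), and its call ended without resected replicate 2 (adjusted p = 0.0544). The partner of annexin A2, s100a10b, was named after its value was seen. It averaged 11.66 ± 0.09 in resected and 11.21 ± 0.26 in control ventricles. All resected values lay above all control values, as they did for 7.74% of all genes. The change of s100a10b, 0.46 ± 0.13, missed the threshold (adjusted p = 0.0553). Without control replicate 2 it was 0.55 and passed (adjusted p = 0.0141), as it did with weighted arrays, with a variance prior that follows intensity, or among probe sets above the median level (adjusted p = 0.0457 to 0.0498). More probe sets were called in general without control replicate 2 (10.4%) and above the median level (11.3%) than with all arrays and probe sets (6.85%). The scaffold gene ahnak, likewise chosen after its value was seen, changed by 0.03 ± 0.10.

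Of 24 measured genes of plasma membrane repair, 5 rose and 1 fell, with a list median of 0.04. Over all genes 5.05% were called higher and 3% lower, and the median change was -0.04. The gene pdcd6, for the calcium sensor ALG-2 that binds annexin A11 in human cells, rose by 0.91 ± 0.12 (limma adjusted p = 0.00148). Its means were 8.35 ± 0.13 in resected and 7.43 ± 0.22 in control ventricles. The ferlin gene myof, for a membrane fusion protein, rose by 0.84 ± 0.10 (adjusted p = 0.000955), while dysf, the ferlin gene of muscle membrane repair, changed by -0.05 ± 0.09 and was chosen after its value was seen. Of the genes for proteins of caveolae, the small pits of the plasma membrane, ehd2b rose by 0.94 ± 0.18 (adjusted p = 0.0122) and cavin2a fell by 0.96 (SE 0.17, adjusted p = 0.00748). The 5 other caveola genes measured, cav1, cav2, cav3, cavin1b and cavin2b, were not called, with changes of -0.06 to 0.26, and were named after their values were seen. The 2 remaining increases were in calpains, calcium-activated proteases that can cut annexins in mammals, and were named after their values were seen. They were capn1 (0.38 ± 0.09, adjusted p = 0.0327) and capn2a (0.33 ± 0.08, adjusted p = 0.0414). The call of capn1 ended without any 1 array but resected replicate 2 and control replicate 2 (adjusted p = 0.0545 to 0.0799), and that of capn2a without any 1 but control replicate 2 (adjusted p = 0.0824 to 0.107). The capn2a call also ended with a variance prior that follows intensity (adjusted p = 0.0681) and after further quantile normalization (0.0645).

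In the list of the plasminogen system 1 of 4 measured genes rose and 0 fell, where 5.05% of all genes were called higher and 3% lower. In mammals annexin A2 binds plasminogen and its tissue activator, and of their genes only plg was measured. The protease inhibitor gene serpine2 averaged 8.92 ± 0.19 in resected and 7.93 ± 0.14 in control ventricles, a change of 0.99 ± 0.11 (limma adjusted p = 0.000765). The zymogen gene plg was at -0.20 ± 0.13, the activator gene plaua at -0.11 ± 0.07 and the antiplasmin gene serpinf2a at -0.18 ± 0.09. The level of plaua was below the array's lower quartile. In the list of phospholipase A2 and lipid mediator enzymes, the pathway that annexin A1 restrains in mammals, 1 of 6 measured genes rose and 0 fell. The riser was alox5ap, of leukotriene synthesis (0.81 ± 0.14, adjusted p = 0.00648), which is also 1 of the 2 neutrophil markers called higher. The phospholipase gene pla2g4aa, with a level below the array's lower quartile, was at -0.31 ± 0.13. The cyclooxygenase genes were at -0.45 ± 0.18 for ptgs1 and 0.36 ± 0.19 for ptgs2a, and neither these nor pla2g4aa passed. Nor did ptges3a (0.04 ± 0.13) or ptges3b (0.62 ± 0.18, adjusted p = 0.067). Over the alternatives 0 to 2 genes of this list were called higher and 0 to 1 lower. Of 7 other genes for proteins that bind phospholipids with calcium, the copine gene cpne1 rose (0.54 ± 0.13, adjusted p = 0.0319) and the synaptotagmin gene syt1a fell by 1.72 (SE 0.15, adjusted p = 0.000102). The call of cpne1 ended when any 1 array was left out (adjusted p = 0.057 to 0.0969), other than resected replicate 1 and control replicates 2 and 3.

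**Figure D4:**
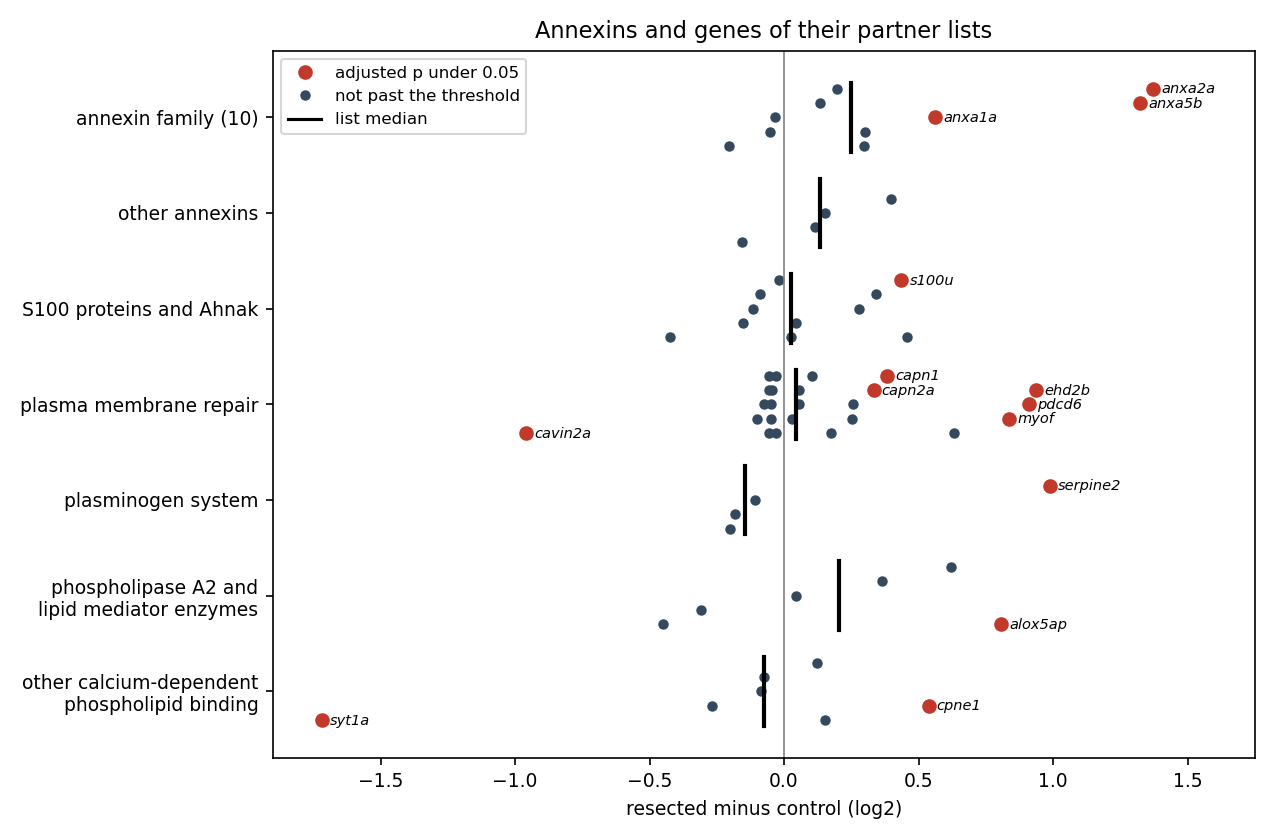
Change of each measured gene (resected minus control, log2) in the annexin family, the other annexins and 5 lists of genes linked to annexins. Red points passed an adjusted p of 0.05 and black lines are list medians. The medians lie between -0.15 and 0.25, and in each list most genes did not pass.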

How the data were processed

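RNA of 8 pools of ventricles, 4 resected and 4 control, was hybridised to Affymetrix zebrafish arrays. The deposited values are log2 expression; affy and RMA (background correction, quantile normalization and probe summary) are given without versions, per the submitters' processing notes. Array medians lay between 5.78 and 5.82, and precision is limited by having 4 arrays a group. The 115 control probe sets were left out. Symbols came from the platform annotation, updated through GRCz12tu gene identifiers: 10795 probe sets had 1 symbol, 135 several and 4572 none. No coordinates are given, since the build behind the array is not named, and close paralogs may share probe binding.

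All 15502 probe sets were fitted by lmFit and eBayes of limma (3.58.1, under R 4.3.3), with two-sided p-values adjusted by Benjamini-Hochberg over all of them and no replicate term. Intervals are at 95%. Data were simulated in which few probe sets changed, fewer than were called here, so recovery in the real data may differ. On the simulated data the test recovered 48.8% of changes of 0.5 log2 units, 91.6% of 1 and 98.6% of 2. Of its calls there 4.45% fell on unchanged probe sets. A gene that was not called may therefore still have changed by a small amount. The brightest probe set stands for a gene. P-values measure the spread between these pools, which the series describes as biological replicates.

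All annexins were named. From each partner list, up to 4 called genes with the largest change were named, or, with none called, the 2 of smallest p, and any gene of a list with 10 or fewer measured. The 5 genes nearest in pattern were named for 2 members, leaving out clone and locus names. The members and lists were chosen with earlier results of these data known. Sequences were not used here. Alternatives were a replicate block, other variance priors, array weights, further normalization, filters on dim probe sets, averaging a gene's probe sets and leaving out each array.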

Additional observations from a re-analysis of the deposited data

Results flagged for a closer look

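Of 40 groups of 4 values, over all annexin probe sets and both groups, 3 held an array far from its fellows, all of them control arrays; chance marks about 1 group in 20. For anxa2a, control replicate 3 read 10.76, while the other 3 control arrays lay between 10.44 and 10.46; without it the change was 1.45, where leaving out single arrays gave 1.30 to 1.47. For the dim anxa2b, control replicate 4 read 3.73, while the other 3 lay between 3.35 and 3.41. For the anxa5b probe set ending in S1_s_at, control replicate 2 read 6.21, while the other 3 lay between 5.73 and 5.79.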

How the results depend on the processing

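The calls of anxa1a, anxa2a and anxa5b held in every alternative but 1, the fit without moderation of the variance. There 1 member, anxa2a, and 2 annexin probe sets were called higher. Of the other annexin and partner lists 3 genes were higher and 1 lower, against 9 and 2. Among these myof, pdcd6, serpine2 and syt1a passed, and ehd2b and cavin2a did not (adjusted p = 0.0952 and 0.0785). Of the cell markers 20 were higher and 0 lower, against 30 and 1 with moderation. The count of lower cell markers was 3 with the replicate block, 0 with a robust prior and 0 to 2 with arrays left out. Leaving out arrays gave 3 to 4 members called higher, and 6 to 11 partner genes. Directions turned for genes that were not called: anxa3b ranged from -0.21 to 0.23 and anxa2b from -0.13 to 0.034 with arrays left out, and anxa4 was at -0.10 as the mean of its probe sets. The difference anxa11a minus anxa11b ranged from -0.32 to 0.003, and anxa1b minus anxa1d from -0.14 to 0.039. For all of these the cause was not tested. The share of all probe sets called ranged from 1.93% without moderation to 11.3% among those above the median level; it was 10.4% without control replicate 2, 4.14% without control replicate 4, and 3.52% and 3.9% without resected replicates 2 and 3. Same-numbered arrays correlated in their deviations from the group means at 0.12, 0.14, -0.01 and -0.16, and 4 of 8 arrays correlated best with their own number, so the numbers were not taken to pair the arrays. With the replicate block 3 members and 5 probe sets were called higher, and capn1 and capn2a were not called (adjusted p = 0.0663 and 0.0928). The pairs of copies past the threshold remained 0 with arrays left out, where the adjusted p was 0.0514 at the lowest. The small number of splits left little room for any other count. Pairing by replicate number gives an exact p of 0.125 at the smallest, which cannot reach the threshold.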
